A study of Takifugu obscurus and Periophthalmus magnuspinnatus and Gallus gallus with 6 samples.

Results

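In the juvenile fugu spinal cord, 282 of 5182 kept cell barcodes carried transcripts of flt3, tnfb and cd74a, a panel used here as a marker set for microglia. Members were chosen by these transcripts. A barcode was kept with more than 3000 UMIs, where a UMI is 1 counted RNA molecule. It was a member with at least 1 UMI in at least 2 of the 3 genes, 0 UMIs of the T and NK cell genes cd3g/d and prf1.1, and fewer than 5 UMIs of gjb1a, a connexin of myelinating oligodendrocytes. The 2 libraries are labelled as Takifugu obscurus, and the methods name the animals as a hybrid of that species with Takifugu rubripes. Each library is a pool of animals about 1 month after hatching, with no treatment or genetic change named. Cells of the rostral cord at the level of the pectoral fin were released with pronase, sorted as negative for propidium iodide and captured with 10x 3′ chemistry. No marker was used to enrich immune cells.

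Microglia are the resident phagocytes of the brain and spinal cord. They descend from early myeloid progenitors, depend in mammals on the CSF1 receptor, clear dying cells and myelin debris through lysosomes, and sense danger through purine receptors and Toll-like receptors. Dendritic cells share much of this myeloid equipment, are specialised in presenting antigen on MHC molecules and, in mammals, depend on the receptor FLT3. Of the 3 genes that define the gate, flt3 encodes that receptor, tnfb a tumour necrosis factor, and cd74a the invariant chain that escorts MHC class II molecules.

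The gate took 69 of 2610 kept barcodes in library 1, or 2.64% (95% exact binomial interval 2.06 to 3.33), and 213 of 2572 in library 2, or 8.28% (7.24 to 9.41). The intervals cover counting error only and do not overlap. The mean over libraries was 5.46%, and with 2 libraries of 1 group the difference has no test. The libraries shared 0 of the kept barcodes. Median depth was alike, at 5526 and 5534 UMIs in the gated barcodes and 5398 and 5485 in all other kept barcodes. Gated barcodes held fewer genes, with a median of 1025 and 1015 at 3000 UMIs per barcode against 1349 and 1335 in the others.

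The genes of the gate are given as a description, since they chose the members. In the gated barcodes of libraries 1 and 2, flt3 was found in 95.7% and 95.8%, tnfb in 88.4% and 95.8%, and cd74a in 100% and 99.5%. Among all other kept barcodes the shares were 1.26% and 2.50% for flt3, 0.826% and 3.22% for tnfb, and 3.19% and 3.90% for cd74a. Most members lay well inside the rule. All 3 genes were present in 58 and 194 members, with a median of 29 and 32 UMIs over the 3 genes. Just inside the limit were 11 and 19 members with exactly 2 of the genes and a median of 11 and 12 UMIs. Just outside it were 39 and 68 barcodes with 1 of the genes that met the other conditions, with a median of 1 UMI in each library. A further 11 and 25 barcodes with 2 or 3 of the genes were left out for cd3g/d, prf1.1 or gjb1a. Of the members, 6 and 11 carried between 1 and 4 UMIs of gjb1a. The name tnfb stands for 2 features of the annotation, which were counted together.

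Free RNA was read from the barcodes with 10 to 99 UMIs. Its level of flt3 was 45.8 and 77.1 CPM (UMIs of the gene scaled to a common library total), of tnfb 40.8 and 144, and of cd74a 75.1 and 72.2, so transcripts of the gate genes were also loose in both suspensions. For any share of barcodes below, the background is the share among barcodes with 5 or more UMIs of gjb1a, 1217 and 1100 in number, whose median depth was 5158 and 5217 UMIs.

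Tests were made on counts summed per library, with 2 sums of gated barcodes against 2 sums of a reference, in edgeR's quasi-likelihood test with Benjamini-Hochberg adjustment. Calls needed a log2 fold change beyond 0.25 and an adjusted p below 0.05. The 6 genes of the rule stayed out of every test. Genes under a mean of 10 CPM over the 4 sums were not tested. A gene scarce in the reference therefore passed only if it was high in the gated sums and could then hardly be called lower, so counts and medians of the gene lists describe the tested genes and support nothing about a whole list. The first reference was all other kept barcodes, 2541 and 2359 in number. The second was the 70 and 62 barcodes with at least 2 UMIs of cd3g/d and prf1.1 together, the other immune barcodes of the cord, here called lymphocyte-like and named cd3g/d/prf1.1 barcodes in the plots. Because the calls of a gate follow the genes that define it, they describe what goes with flt3, tnfb and cd74a and are not independent evidence of a cell type.

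Against all other kept barcodes, 2406 of 8133 tested genes were called higher (29.6%) and 2703 lower (33.2%), and the median log2 fold change of all tested genes was -0.13. With library totals as the only scaling the median was -0.84 and the calls split into 1505 higher and 4392 lower. Log2 fold changes below come from the fit with TMM scaling between sums, whereas the CPM beside them use library totals alone. A fold change can therefore differ in size or sign from the ratio of its CPM, in both comparisons. Leaving out the sum of other barcodes of library 1 left 826 higher and 449 lower, and leaving out that of library 2 left 923 and 499. Against lymphocyte-like barcodes, 511 of 6075 tested genes were called higher (8.41%) and 454 lower (7.47%), with a median log2 fold change of 0.05 over all tested genes. With library totals alone that median was 0.63 and the calls 1123 higher and 318 lower, and DESeq2 called 268 higher and 366 lower. Leaving out the lymphocyte-like sum of library 1 gave 736 and 720 calls, that of library 2 825 and 681, and the gated sum of library 2 356 and 278.

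Markers of microglia were present in part. AIF1, the Iba1 protein gene used to stain microglia and macrophages, had 1241 and 1339 CPM in the gated barcodes, 13.7 and 21.0 in the other barcodes and 425 and 480.1 in the lymphocyte-like ones. It rose by a log2 fold change of 6.92 (SE 0.27, edgeR adjusted p = 1.28e-05) against the other barcodes and by 0.92 (SE 0.21, adjusted p = 2.28e-02) against the lymphocyte-like ones. The second call was lost without the gated sum of library 1 (adjusted p = 0.0706) or library 2 (0.190). The ADP receptor p2ry12, by which mammalian microglia follow purine signals, had 118 and 102 CPM against 3.51 and 3.32 in the other barcodes and 5.12 and 2.81 in the lymphocyte-like ones. Its log2 fold changes were 5.69 (SE 0.20) and 4.12 (SE 0.47), both called. The apolipoprotein gene apoeb, which microglia express in zebrafish, stood at 1705 and 1308 CPM against 165 and 178, and 30.7 and 28.1 (log2 fold changes 3.83 and 5.07, both called). In all these genes both gated sums lay above all 4 reference sums.

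**Figure D1:**
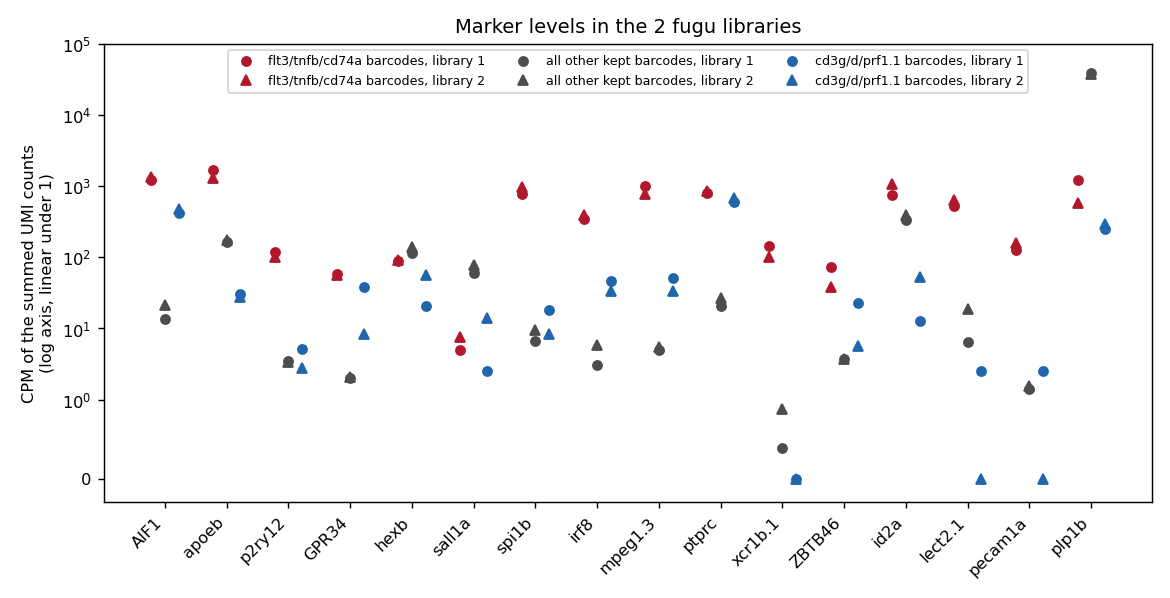
Levels of 16 genes in CPM on a log axis, linear under 1, for the gated barcodes (red), all other kept barcodes (grey) and lymphocyte-like barcodes (blue). Each point is the summed count of 1 library, circles for library 1 and triangles for library 2. AIF1, spi1b, mpeg1.3 and xcr1b.1 sit highest in both gated sums, hexb does not separate from the other barcodes, and plp1b is at 1238 and 574 CPM in the gated sums against 38507 and 38344 in the others.

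Several other markers of the microglia list were low, undetected or not called higher. Of its 22 entries 15 matched a feature name, and c1qa, c1qb, c1qc, cx3cr1, trem2, tyrobp and havcr1 did not. No level can be given for the genes without a match. The CSF1 receptor gene csf1ra had 0 UMIs in all 282 gated barcodes, which allows a share of barcodes with a UMI of up to 1.06%. It was also at 0 in the lymphocyte-like barcodes and at 3.07 and 1.36 CPM in the other barcodes. No other csf1r copy matched a feature name. TMEM119, a surface marker of mammalian microglia, had a UMI in 1 gated barcode. The transcription factor gene sall1a fell, with 4.91 and 7.62 CPM against 60.4 and 78.6 in the other barcodes (log2 fold change -2.60, edgeR adjusted p = 1.19e-03). It was found in 17.0% and 18.5% of gjb1a barcodes, so its fall is not read as the loss of a microglial trait. For hexb, which encodes a lysosomal hexosaminidase, the gated sums held 88.4 and 90.7 CPM and the other barcodes 116 and 139.5, with no call (log2 fold change 0.21, adjusted p = 0.324). The ranges of the 2 groups did not overlap before scaling. Of the 15 features of the microglia list outside the gate, 8 passed the filter on low counts. Of these 6 were called higher (with slc7a7, GPR34 and nrros beside the 3 above), 1 lower and 1 not called. The median was 4.14 over the tested genes of the list. Among all tested genes, 29.6% were called higher and 33.2% lower. The genes p2ry12, slc7a7, GPR34 and nrros passed the filter through the gated sums alone and could hardly be called lower. Without the filter on low counts the median of the list turned to -1.35. Against the lymphocyte-like barcodes, AIF1, apoeb and p2ry12 were called higher and nrros, which anchors latent TGF-beta, lower (63.9 and 66.3 against 105 and 171 CPM).

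Markers of dendritic cells were present beside them. The chemokine receptor gene xcr1b.1, whose mammalian relative XCR1 marks the cross-presenting class of dendritic cells, had 142 and 101 CPM in the gated barcodes and 0.383 and 0.882 in the other barcodes (log2 fold change 8.22, SE 0.36, adjusted p = 1.76e-05). It had 0 UMIs in both lymphocyte-like sums and was at least 30.3-fold higher than there, against a floor of 3 UMIs over both sums. The zinc finger gene znf366, known in human dendritic cells as DC-SCRIPT, stood at 54.0 and 59.5 CPM against 0.256 and 0.407 (log2 fold change 8.10). ZBTB46, a factor of classical dendritic cells in mammals, was at 73.7 and 38.9 CPM against 3.70 and 3.73 (log2 fold change 4.47). The gene znf366 was named for its large change and is on no list. Against the other barcodes xcr1b.1, ZBTB46, id2a (log2 fold change 2.06) and hepacam2 (2.27) of the dendritic list were tested and called higher. Of all tested genes 29.6% were. The genes xcr1b.1 and ZBTB46 passed the filter through the gated sums alone. In gjb1a barcodes id2a was found in 20.5% and 23.6% and hepacam2 in 22.3% and 24.2%. The remaining members were not tested in this comparison. Against the lymphocyte-like barcodes 3 of 5 tested were called higher and irf4a lower, beside 8.41% and 7.47% of all tested genes. ZBTB46 was not called there (log2 fold change 1.24, edgeR adjusted p = 0.257). The chemokine receptor ccr7 of migrating dendritic cells had 0 UMIs in the gated barcodes, and irf4a was found in 1 of them against 199.6 and 98.3 CPM in the lymphocyte-like sums. With csf1ra at 0 and sall1a lower on one side, ccr7 at 0 and irf4a in 1 member on the other, and p2ry12 and xcr1b.1 both present, the levels of the matched genes fit neither list as a whole. The 0 of csf1ra and of ccr7 carries little here, since both were scarce or absent in the other barcodes too. The same holds for irf4a, at 5.43 and 2.44 CPM in the other barcodes. For sall1a the reference included gjb1a barcodes that carried it, so its lower level carries little as well. The barcodes are named below by the gate alone.

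The same barcodes could carry both kinds of marker. In library 1, 14 members had UMIs of both p2ry12 and xcr1b.1, 22 of xcr1b.1 alone, 12 of p2ry12 alone and 21 of neither, and in library 2 the counts were 35, 50, 52 and 76. A UMI of p2ry12 was found in 38.9% and 41.2% of the members with xcr1b.1 and in 36.4% and 40.6% of those without. No split into p2ry12 and xcr1b.1 members was visible in these shares.

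**Figure D2:**
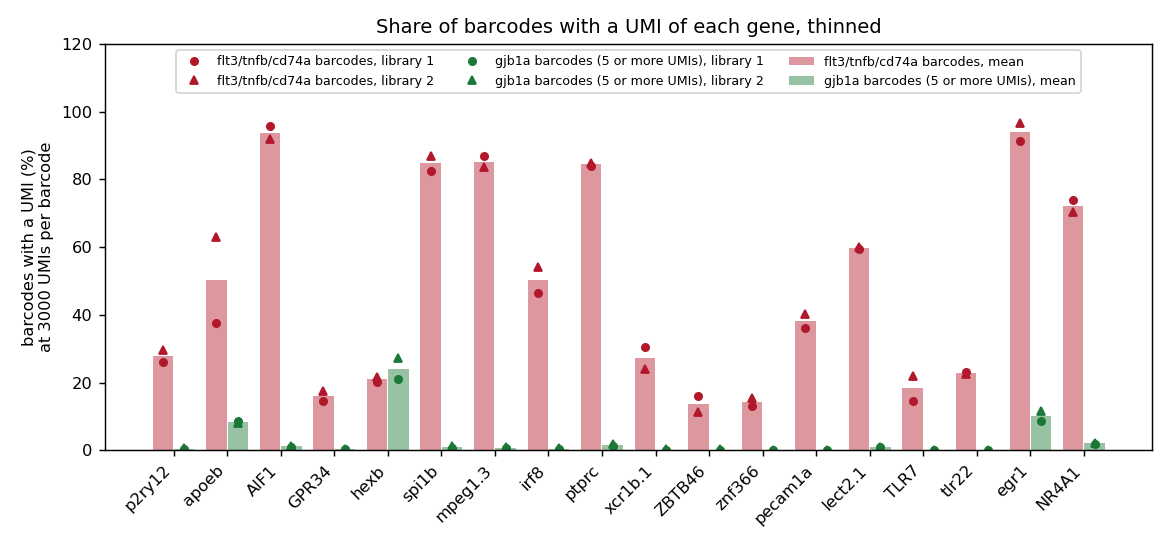
Percent of barcodes with at least 1 UMI of each of 18 genes after each barcode was thinned to 3000 UMIs, for gated barcodes (red) and gjb1a barcodes (green). Bars are means of the 2 libraries, circles library 1 and triangles library 2. The share for p2ry12 is 26.1% and 29.6% against 0.329% and 0.636%, whereas hexb reaches 20.3% and 21.6% against 21.0% and 27.3%.

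Thinning each barcode to 3000 UMIs lowered the shares and kept the gap to background in every gene shown except hexb, where the gjb1a barcodes lay as high. Unthinned, p2ry12 was found in 37.7% and 40.8% of gated barcodes against 0.575% and 1.18% of gjb1a barcodes. For xcr1b.1 the shares were 52.2% and 39.9% against 0.329% and 0.364%. For apoeb they were 60.9% and 76.1% against 14.5% and 14.3%, and its free RNA reached 1212 and 917 CPM. The top 3 members held 35.8% of the apoeb UMIs of all gated barcodes.

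Many general myeloid genes were high. Of 12 features, 11 were tested against the other barcodes, 10 were called higher and 0 lower, with a median log2 fold change of 6.58. Of all tested genes 29.6% were called higher and 33.2% lower. The genes spi1b, irf8, mpeg1.3, ncf1 and ncf4 lay under 10 CPM in the other barcodes. They passed the filter through the gated sums alone and could hardly be called lower. The master regulator of myeloid fate spi1b (PU.1) had 771 and 978 CPM against 6.64 and 9.50 in the other barcodes and 17.9 and 8.42 in the lymphocyte-like ones, and was found in 88.4% and 93.4% of members. Its log2 fold changes were 7.48 (SE 0.28, adjusted p = 1.23e-05) and 5.42 (SE 0.41, adjusted p = 3.63e-04). Its partner irf8, a factor that both microglia and dendritic cells need in mammals, rose by 7.08 and 2.59, and the macrophage perforin gene mpeg1.3 by 8.10 and 3.77. The leukocyte phosphatase gene ptprc (CD45) had a log2 fold change of 5.86 against the other barcodes, a call, and -0.19 (adjusted p = 0.607) against the lymphocyte-like ones. The genes fcer1g, rac2 and itgb2 had log2 fold changes of 5.52, 5.87 and 5.99 in the first comparison, all called, and -0.56, -0.34 and 0.21 in the second, none called. The difference between the comparisons was not tested. The factor cebpb, at 14.7 and 9.91 CPM, was not called against the other barcodes and was lower than in the lymphocyte-like ones (207 and 179.7 CPM, log2 fold change -4.64).

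**Figure D3:**
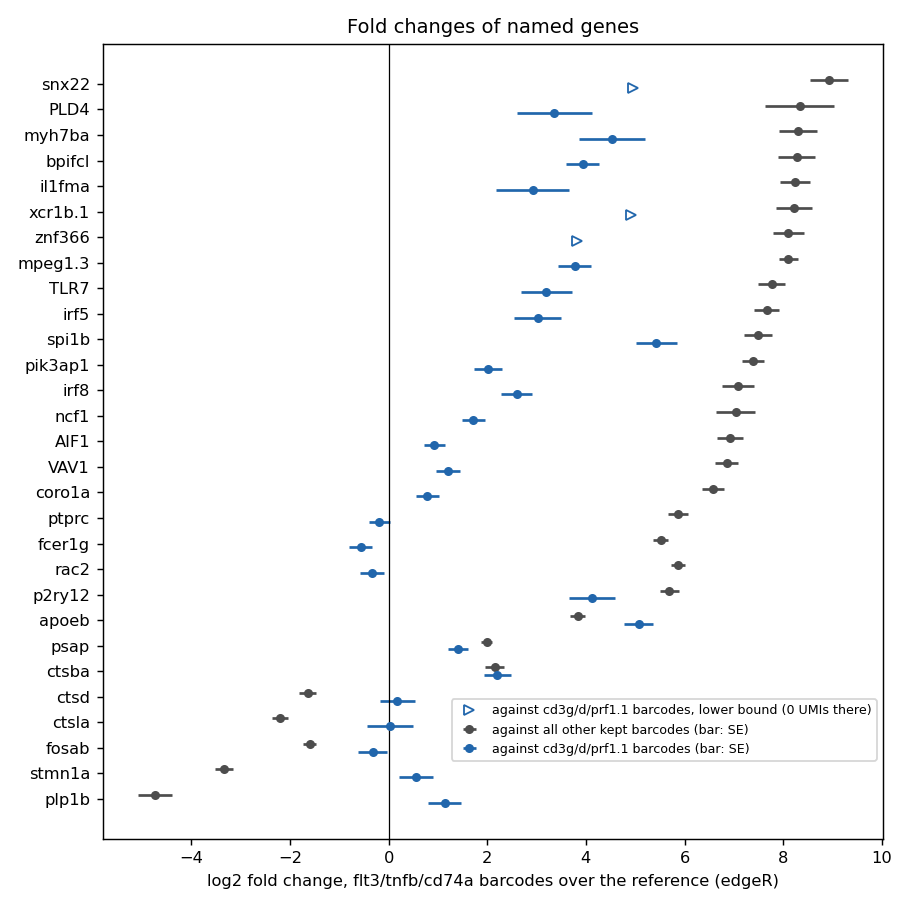
Log2 fold changes of 29 named genes from edgeR with an SE derived from its F value, gated barcodes over all other kept barcodes (grey) and over lymphocyte-like barcodes (blue). Open triangles are lower bounds where the lymphocyte-like sums hold 0 UMIs. The grey points fall from 8.92 for snx22 to -4.74 for plp1b, and ptprc, fcer1g and rac2 lie near 0 in blue.

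The 20 largest changes against the other barcodes included 10 genes with a symbol. They were snx22, a sorting nexin (log2 fold change 8.92), the neuropeptide gene npy (8.54), PLD4, which in mammals encodes an endolysosomal nuclease of phagocytes (8.34), the myosin heavy chain gene myh7ba (8.30), bpifcl of the bactericidal permeability-increasing fold (8.27), the interleukin 1 family member il1fma (8.23), zgc:101810 (8.19) and the xcr1b.1, znf366 and mpeg1.3 given above. For bpifcl the gated sums held 589.6 and 581 CPM, the other barcodes 1.85 and 4.34 and the lymphocyte-like ones 15.4 and 36.5, and it was found in 87.0% and 91.1% of members. For il1fma they held 396 and 238 CPM against 1.79 and 1.49, and 48.6 and 2.81. By contrast npy, at 22.1 and 38.9 CPM, came from 6 members, 1 of which held 55% of its UMIs. The 10 features without a symbol included ENSTRUG00000024837, with the largest change (log2 fold change 9.39, 14.7 and 41.9 CPM against 0.0639 and 0.0679), and ENSTRUG00000023663, with 18616 and 27155 CPM in the gated barcodes, 82.8 and 175 in the others and 568 and 576 in the lymphocyte-like ones. The files do not pair these identifiers with names.

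Among the called genes the 10 with the highest CPM also included genes of the cytosolic ribosome, rplp2, rps19, rps27a and rplp1, with log2 fold changes of 2.33, 1.97, 1.89 and 1.55 against the other barcodes, and crbn (1.29). Their direction depended on the reference. Against the lymphocyte-like barcodes rps19 (-1.17), rps27a (-1.004), rplp1 (-1.40) and crbn (-1.06) were called lower and rplp2 had a log2 fold change of -0.59 (adjusted p = 0.134). For rplp1 the sums were 8117 and 8361 CPM in gated, 4622 and 4586 in other and 15155 and 13435 in lymphocyte-like barcodes, so that the gated sums lay between the references. For rplp2 they were 15634 and 16478 in gated and 16632 and 15157 in lymphocyte-like barcodes, which overlap.

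Genes of the lysosome, in which phagocytes digest what they engulf, changed in both directions against the other barcodes. Of 14 tested, 10 were called higher and 3 lower, with a median of 1.45. Of all tested genes 29.6% were called higher and 33.2% lower there, and 8.41% and 7.47% against the lymphocyte-like barcodes. The saposin precursor gene psap had 1859.6 and 1869.8 CPM against 762 and 767 (log2 fold change 1.99, SE 0.11), the cysteine protease gene ctsba 933 and 1243 against 395 and 412 (2.15), the cholesterol carrier gene npc2.1 1282 and 1227 against 332 and 348 (2.59), and the ganglioside activator gene gm2a 376 and 455 against 57.7 and 46.7 (3.72). CTSH rose by 4.94 and ctsz by 3.52. In the other direction the cathepsin genes ctsd and ctsla fell by 1.64 and 2.20 on the log2 scale, with 101 and 127 CPM for ctsd against 631 and 563, and lamp1b of the lysosomal membrane fell by 2.02. Against the lymphocyte-like barcodes 6 of 14 were called higher (ctsba, ctsz, cd63, psap, gm2a and npc2.1) and 0 lower, with a median of 1.27, and the call of ctsz was lost in DESeq2 (adjusted p = 0.0806) and without the gated sum of library 2 (0.0974).

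Genes of the phagocytosis and clearance list went in both directions against the other barcodes, and the receptor kinase gene mertka was lower. Of the 18 entries of the phagocytosis and clearance list 8 matched a feature name. Against the other barcodes 7 genes of that list were tested, 2 called higher and 5 lower, with a median of -1.52. Of all tested genes 29.6% were called higher and 33.2% lower. The receptor kinase genes mertka and AXL, which recognise bridged phosphatidylserine, had 17.2 and 12.96 CPM against 85.1 and 76.9 (log2 fold change -1.79, adjusted p = 1.05e-03) and 9.83 and 9.15 against 28.6 and 27.5 (-0.86, adjusted p = 3.23e-02). The call of AXL was lost in the fit with the library as a replicate block (adjusted p = 0.0925), with a UMI minimum of 1000 (0.127), in DESeq2 (0.103), and without the gated sum of library 2 or either sum of other barcodes (0.145 to 0.278). The scavenger receptor gene scarb2a fell by 1.52. Both members called higher belong to the engulfment motor, DOCK2 (log2 fold change 6.42) and ELMO1 (1.42). Against the lymphocyte-like barcodes 3 genes of the list were tested and 0 called in either direction, with a median of 0.49.

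Of 12 sensors and adaptors for microbial products, 7 were tested against the other barcodes and called higher, with a median of 6.72. Of all tested genes 29.6% were called higher. The Toll-like and NOD receptors among them passed the filter through the gated sums alone, and of the 5 not tested tlr1 and tirap had 0 UMIs in the gated barcodes. The kinase gene irak4 had 22.1 CPM in each gated sum against 22.4 and 20.5 (log2 fold change 0.77), and its call was lost with the library as a replicate block (adjusted p = 0.0687) and with library totals as the only scaling (0.861). TLR7, an endosomal sensor of single-stranded RNA, had 71.2 and 78.5 CPM against 0.447 and 0.679 (log2 fold change 7.76, SE 0.28), the fish receptor tlr22 81.1 and 80.8 against 0.767 and 0.95 (7.25), and tlr21 36.8 and 35.1 against 0.383 and 0.475 (7.05). The signalling adaptor myd88 had a smaller change of 1.88. Calls against the lymphocyte-like barcodes were limited to TLR7 (3.20) and tlr22, which had 0 UMIs in both of those sums and was at least 20.1-fold higher. The downstream factor irf5 was found in 33.3% of members in each library, with log2 fold changes of 7.66 and 3.02.

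In immune receptor signalling 14 of 16 tested genes were called higher against the other barcodes (median 5.49) and 5 of 16 against the lymphocyte-like ones (median 0.58). Of all tested genes 29.6% and 8.41% were called higher in these comparisons, and 33.2% and 7.47% lower. The genes pik3ap1, VAV1, btk and syk were scarce in the other barcodes. They needed the gated sums to pass the filter and could hardly be called lower in the first comparison. The adaptor genes pik3ap1 (7.39 and 2.02) and VAV1 (6.85 and 1.20) and the kinase gene btk (6.18 and 2.35) were called in both comparisons. The kinase gene syk was called in the first alone (5.92, and 0.62 with adjusted p = 0.550), and these differences between comparisons were not tested. The tetraspanin gene cd82a fell, with 386 CPM in each gated sum against 4426 and 4244. For the cytoskeleton and motility list 11 of 14 tested were called higher and 2 lower (median 5.50), among them the actin regulators coro1a (6.58), lcp1 (6.58), hcls1 (6.70) and capgb (7.08). Of these hcls1 (1.17) and capgb (2.32) were also called against the lymphocyte-like barcodes. Both needed the gated sums to pass the filter against the other barcodes and could hardly be called lower there.

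**Figure D4:**
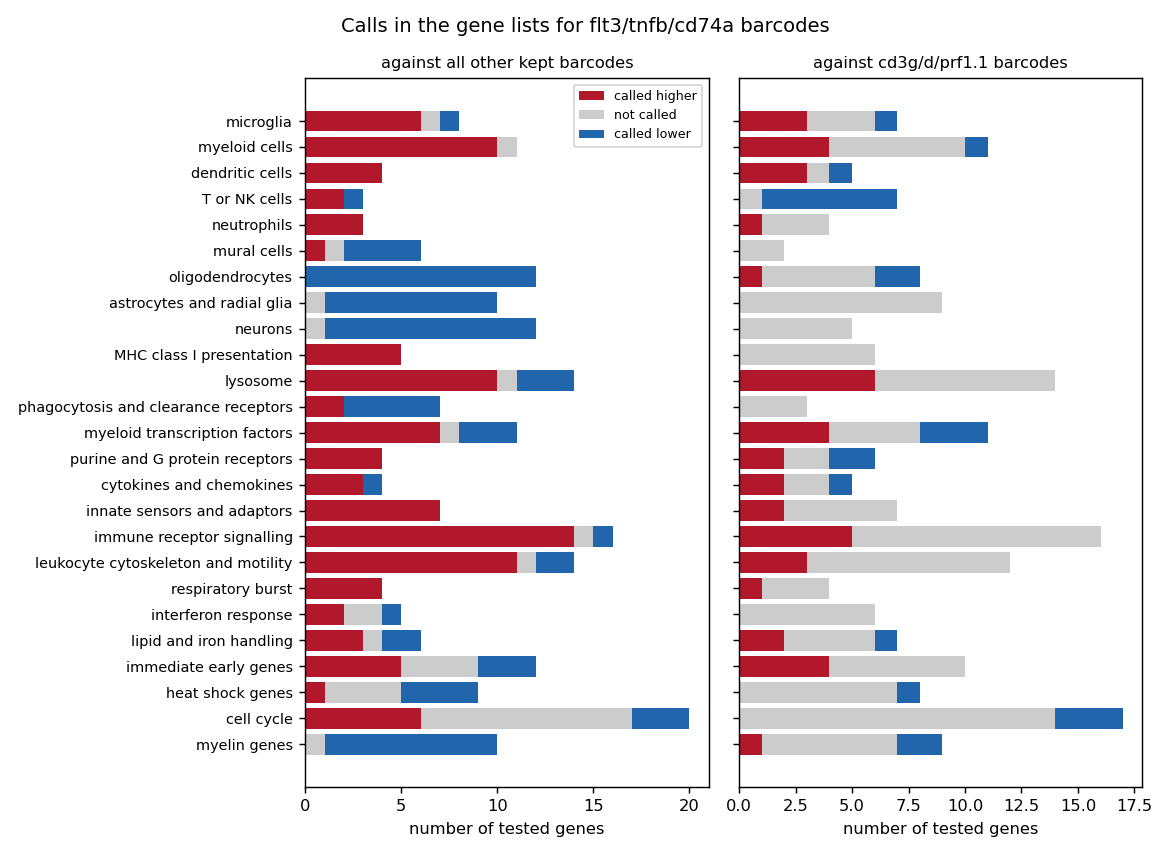
Number of tested genes of each list called higher (red), not called (grey) or called lower (blue) in the gated barcodes, against all other kept barcodes on the left and lymphocyte-like barcodes on the right. Lists with at least 3 genes tested on the left are shown. On the left 10 of 11 myeloid genes are red and 12 of 12 oligodendrocyte genes blue. Of all tested genes 29.6% and 33.2% were called higher and lower. The rule kept barcodes with 5 or more UMIs of gjb1a out of the gate, so the oligodendrocyte bar describes the rule.

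Of the respiratory burst list, which covers superoxide production and myeloperoxidase, 4 genes were tested and all called higher. The genes ncf1, ncf4 and mpx passed the filter through the gated sums alone and could hardly be called lower. Among the tested genes ncf1, the organiser of the NADPH oxidase, had 634 and 505 CPM against 4.41 and 9.64 (log2 fold change 7.03). Its level was 110.1 and 118 CPM in the lymphocyte-like barcodes (1.72). Another of the tested genes, the myeloperoxidase gene mpx, is a marker of neutrophils, and all of its UMIs came from 1 member of library 2. Its call was lost in DESeq2 (adjusted p = 0.364). In MHC class I presentation 5 of 5 tested genes were called higher (median 4.73), with the immunoproteasome genes psmb13a (6.34) and psmb9a (4.97), and 0 of 6 were called in edgeR against the lymphocyte-like barcodes in either direction. Of all tested genes 29.6% were called higher against the other barcodes, and 8.41% higher and 7.47% lower against the lymphocyte-like ones. All 14 features of the class I list summed to 48.9 and 60.3 CPM in the other barcodes. There psmb13a and psmb9a needed the gated sums to pass the filter and could hardly be called lower. For class II, ifi30a, a thiol reductase of antigen processing, had 339 and 298 CPM against 59.8 and 57.9, and 38.4 and 59.0 (log2 fold changes 3.13 and 2.13, both called), and 1 other gene of that list was tested, rfxap, which fell by 1.42.

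Of 12 tested activity-dependent early genes, 5 were called higher and 3 lower, where 29.6% and 33.2% of all tested genes were, with a median of 0.31 that turned to -0.40 with library totals as the only scaling. The zinc finger gene egr1 had 2324 and 2795 CPM against 426 and 632 in the other barcodes and 48.6 and 309 in the lymphocyte-like ones (log2 fold changes 2.99 and 3.33, both called). The nuclear receptor gene NR4A1 had 875 and 502 CPM against 27.7 and 43.6 (4.95), and a second feature named nr4a1 had 2036 and 1027 against 99.7 and 105 (4.58). In the other direction fosab, jun and dusp1 fell by 1.60, 1.57 and 1.09 on the log2 scale, with 803 and 759 CPM for fosab against 3457 and 4268. Heat shock genes were called lower in 4 and higher in 1 of 9 tested (median -0.49), with hsp90aa1.1 at 228 and 338 CPM against 1788 and 2591. All barcodes went through the same dissociation and sort, whose part in these values was not tested.

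The cytokine genes cxcl8a and il1b were each carried by few members. The neutrophil chemoattractant gene cxcl8a had 509 and 88.4 CPM against 3.77 and 8.89 in the other barcodes (log2 fold change 6.10, adjusted p = 1.60e-03) and was found in 5.80% and 4.69% of members, against 1.15% and 1.00% of gjb1a barcodes. The top 3 of its 14 members held 67.5% of its UMIs. The interleukin gene il1b was found in 7 members, and all 7 also carried cxcl8a. They made up 2 of 4 cxcl8a members in library 1 and 5 of 10 in library 2. The factor tnfsf13b, a survival signal for B cells, rose by 1.66 and was found in 20.3% and 23.5%. The chemokine gene ccl19 was found in 23.2% and 29.6% and was lower (log2 fold change -2.10, adjusted p = 4.22e-02), and 1 member held 60.3% of its UMIs in the gated barcodes.

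Of the cell cycle list 20 genes were tested, 6 called higher and 3 lower, beside 29.6% and 33.2% of all tested genes. mki67, the antigen of dividing cells, had 54.0 and 40.4 CPM against 26.1 and 26.3 (log2 fold change 1.50, adjusted p = 1.34e-03) in 4.35% and 5.16% of members. top2a was found in every mki67 member of library 1 and in 10 of 11 in library 2. At least 3 of 7 mitotic genes were present in 3 members of library 1 and 11 of library 2. The calls of top2a (0.64) and pcna (0.61) reversed to -0.079 and -0.10, without a call, with library totals as the only scaling, and that of top2a was lost with the library as a replicate block (adjusted p = 0.0640).

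Oligodendrocyte genes were called lower in 12 of 12 tested, where 33.2% of all tested genes were. Their summed level was 2425 and 1182 CPM against 61469.5 and 59539.6 in the other barcodes. Astrocyte and radial glia genes were called lower in 9 of 10 (719.8 and 969 CPM against 10584 and 10839) and neuronal genes in 11 of 12 (219 and 155.5 against 1268 and 1331). Some of what remained was concentrated in few barcodes and some was spread. The myelin gene plp1b was found in 69.6% and 73.7% of members, but 3 of them held 68.8% of its 1257 UMIs, and 3 held 91.4% of those of cldnk and 91.5% of those of the glutamate transporter gene slc1a2b. By contrast the fatty acid binding protein gene fabp7a was found in 110 members, with 37.7% of its UMIs in the top 3. Of 3 tested T and NK cell genes, runx3 (63.9 and 35.8 CPM against 6.20 and 6.99, in 14 members) and prf1.6 were called higher (log2 fold changes 3.48 and 2.19), as was the mural gene tagln (1.33), whereas 4 of 6 tested mural genes were called lower. Of all tested genes 29.6% were called higher. Both runx3 and prf1.6 passed the filter through the gated sums alone and could hardly be called lower. The top 3 members held 54.8% of the runx3 UMIs. Endothelial genes were near 0 in the gated barcodes (cdh5, tie1, fli1, egfl7 and cldn5b at 0 UMIs), except for pecam1a, an adhesion molecule also found on leukocytes, at 125 and 158 CPM against 1.41 and 1.56 (log2 fold change 7.31). That gene too passed the filter through the gated sums alone. Of the 11 entries of the B cell list 3 matched a feature name. Among these cd79a was at 0 and pax5 at 1 UMI. An EBF1 feature had 59.0 and 7.62 CPM against 37.5 and 33.0 in the other barcodes, with no call (log2 fold change 0.096). Of the 9 entries of the border macrophage list 3 matched a feature name. The 3 features of mrc1b and f13a1b were found in at most 7.51% of members in either library. The 1 that was tested, an mrc1b feature, fell by 3.86. It was found in 44.4% and 47.4% of gjb1a barcodes, so its fall is not read as a result about border macrophages. Another mrc1b feature, not tested, had 2.46 and 13.7 CPM against 1.02 and 0.679 in the other barcodes.

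**Figure D5:**
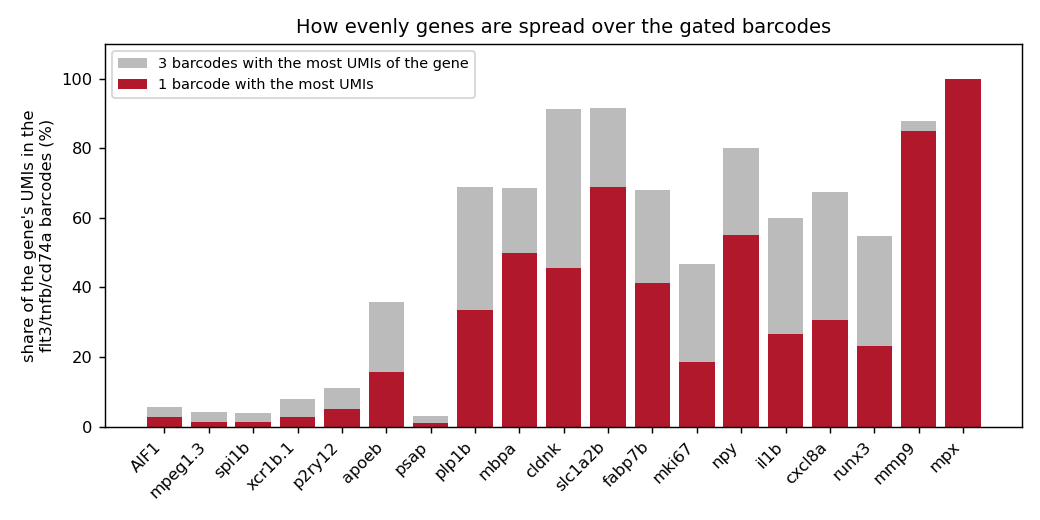
Share of a gene's UMIs over all 282 gated barcodes that lies in the 1 barcode (red) or the 3 barcodes (grey) with the most UMIs of it. AIF1, spi1b and psap stay under 6% for the top 3, whereas plp1b reaches 68.8%, slc1a2b 91.5% and mpx 100% in 1 barcode.

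Of 7 neutrophil features, 3 were tested against the other barcodes and called higher. Of all tested genes 29.6% were. lect2.1, a leukocyte-derived chemotaxin, had 526 and 646 CPM against 6.45 and 18.6 and was found in 72.5% and 73.7% of members (log2 fold change 6.27). It was at 2.56 and 0 CPM in the lymphocyte-like barcodes (log2 fold change 8.03, adjusted p = 3.19e-04). The other 2 rested on library 2 and passed the filter through its gated sum alone. mpx came from 1 member, 85% of the UMIs of the protease gene mmp9 came from 1 member, and both had 0 UMIs in library 1. Without the gated sum of library 2 the 2 fitted changes reversed with no call.

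The genes that set the gated apart from the lymphocyte-like barcodes included 6 with a symbol among the 8 largest changes, and all 6 had 0 UMIs in both lymphocyte-like sums. Against the floor of 3 UMIs the lower bounds were 41.4-fold for si:cabz01085950.1, 34.7-fold for TMCC3, 31.2-fold for snx22, 30.3-fold for the membrane protease gene mmp14b and for xcr1b.1, and 22.8-fold for the endothelin-converting enzyme gene ece1. TMCC3 had 93.3 and 185 CPM in the gated barcodes and mmp14b 118 and 126. Of the 8 smallest changes 6 had no symbol. The kinase gene itk of T cell receptor signalling had 0 UMIs in the gated barcodes and 361 and 253 CPM in the lymphocyte-like ones (at least 176-fold lower), and the chemokine gene ccl20 343 and 70.2 CPM there (at least 118-fold lower). The T-bet gene tbx21 was at least 68.2-fold lower. Of the T and NK cell list, 6 of 7 tested genes were called lower, beside 7.47% of all tested genes. The remaining one, prf1.6, had a log2 fold change of 1.98 (adjusted p = 0.112). Since absence of cd3g/d and prf1.1 was part of the rule, these levels describe it. ENSTRUG00000001382 had 0 UMIs in the gated barcodes against 3284 and 2603 CPM in the lymphocyte-like ones, and was at least 43.7-fold lower than in the other barcodes.

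The 10 smallest changes against the other barcodes all had 0 UMIs in the gated barcodes. The 6 with a symbol were the protocadherin gene pcdh18b, the secretory granule gene chga, car15, the chloride channel gene clic4, dpf3 and lnx2a. Their lower bounds ran from 31.5-fold for pcdh18b, with 54.6 and 55.3 CPM in the other barcodes, to 18.5-fold for lnx2a. ENSTRUG00000024206 was at least 34.9-fold lower. Many of these transcripts lay in the gjb1a barcodes, which the rule kept out of the gate. In library 1 those held 710 of the 854 UMIs of pcdh18b in the other barcodes and 451 of 584 of car15. For clic4 they held 551 of 620 and for lnx2a 460 of 546, so the bounds of such genes largely describe the rule. For chga and dpf3 the gjb1a barcodes held 33 of 622 and 250 of 623.

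Over 2075 genes with at least 50 CPM in the gated barcodes, the median absolute log2 ratio of library 2 to library 1 was 0.23 in the gated and 0.11 in the other barcodes. The gated sums held 407071 and 1311893 UMIs and the other sums 15655038 and 14737357, and counting error is larger in the first. A chi-square of the counts per degree of freedom, which takes counting error into account but grows with depth, was 3.21 in the gated and 11.96 in the other barcodes, so no order between them is read. samhd1, a nucleotide hydrolase induced by interferon, had 157 CPM in library 1 and 38.9 in library 2, and the transcription factor gene mafba 14.7 and 51.1. Both were called higher than in the other barcodes (3.97 and 2.25).

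Clustering of the gated barcodes without the 6 genes of the rule gave 3 groups of 124, 90 and 68 barcodes, which are described and not tested. The first held 69.6% of the members of library 1 and 35.7% of those of library 2, the second 17.4% and 36.6%, and the third 13.04% and 27.7%. Genes found in at least 25% of a group led it. The first was led by mdkb, hbbe2, fabp7b, ccl19 and ckbb, and held 13 of the 14 mki67 members. Of the leading genes mdkb differed most by share of barcodes, with 31.5% of the group and 8.23% of the other members. The others led by level more than by share, with fabp7b in 25.8% and 23.4% and hbbe2 in 27.4% and 22.2%. The shares of plp1b were 78.2% and 68.4%. Since 3 members held 68.8% of all plp1b UMIs and 68.1% of those of fabp7b, neither level describes the group as a whole. The group stays unnamed. The second was led, among named genes, by apoeb, with 2557 CPM in the group and 757 outside it, and dgkab. By share of barcodes apoeb differed less, with 81.1% in the group and 68.2% outside it. Its level in the group was 7043 CPM in the 12 barcodes of library 1 and 1959 in the 78 of library 2. The third was led by LMNA, mafba, egr3 and ahr2b and had the fewest UMIs, with a median of 4424 against 5518.5 and 6794.5. AIF1 was found in at least 94.7% and spi1b in at least 86.8% of each group in each library.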

How the data were processed

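Single-cell RNA was measured in 2 fugu spinal cord libraries. The deposited values are raw UMI counts per barcode and feature. The authors aligned reads to Takifugu rubripes (Ensembl release 113) in Cell Ranger 7.2.0, and worked on the counts in Seurat 5.3.0. Of 21383 features, 15198 have a symbol. Summing counts over pooled animals leaves 1 value per library, so p-values measure only the spread between libraries, which may be technical. Members and gene lists were chosen with earlier results of these data known.

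Counts of the gated barcodes and of each reference were summed per library and fitted with edgeR 4.0.16 (R 4.3.3, TMM scaling, quasi-likelihood test) after leaving out features under a mean of 10 CPM over the 4 sums or under 20 UMIs in all. Fitted values were checked on simulated counts. Tests were two-sided. Folds against sums at 0 UMIs used a floor of 3 UMIs over the group, which covers counting error only. Within each library both arms share their pooled animals, so the library number pairs them. The correlation of their deviations was 0.206 for the other and -0.0210 for the lymphocyte-like barcodes. Named genes were the 20 largest and 10 smallest called changes, the 10 called higher with the highest CPM, the 8 largest and 8 smallest against lymphocyte-like barcodes, genes of the lists and the 5 leading genes of each sub-cluster. Doublets were not removed. The 54 and 53 barcodes with the highest Scrublet scores, among them 5 and 10 members, were left out as an alternative. Other alternatives were DESeq2 1.42.0, other scalings, UMI minimums of 1000 and 4500, all 3 gate genes, 0 UMIs of gjb1a, no low-count filter, the replicate block, leaving out each sum and, chosen after seeing the data, other barcodes without UMIs of the gate genes. Sub-clusters were made with leidenalg 0.10.2 at a resolution of 0.5.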

Additional observations from a re-analysis of the deposited data

Results flagged for a closer look

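Barcodes with 1000 to 3000 UMIs lay below the minimum and entered no comparison. The gate was passed by 37 of 1170 of them in library 1 (3.16%) and by 81 of 1192 in library 2 (6.80%). These shares were drawn to attention as signal in barcodes that the comparisons did not use. The difference between the libraries had the same direction as above the minimum.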

How the results depend on the processing

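With library totals as the only scaling, calls against the other barcodes were 1505 higher and 4392 lower, and against the lymphocyte-like barcodes 1123 higher. Without a filter on low counts, 4113 were lower than in the other barcodes and 846 higher than in the lymphocyte-like ones, and DESeq2 called 268 higher there. Leaving out 1 sum gave 826 to 2545 higher and 449 to 2797 lower against the other barcodes, and 356 to 825 higher and 278 to 720 lower against the lymphocyte-like ones. The cause of these changes was not tested. The fit with the replicate block called 2295 higher and 2655 lower, and 649 and 480, and among named genes it removed the calls of AXL, irak4, irf9 and top2a against the other barcodes and of hsp90ab1 against the lymphocyte-like ones and no other call. The fitted changes of mmp9 (-8.61) and mpx (-7.27) without the gated sum of library 2, and of top2a (-0.079) and pcna (-0.10) with library totals alone, reversed. Without the sum of other barcodes of library 2 those of mmp9 and mpx were 6.73 and 11.51, without a call. Over all alternatives, 2523 of the recomputed changes of 184 called genes against the other barcodes kept their call, 223 lost it and 4 reversed. Of the losses 83 came without the sum of other barcodes of library 1 and 80 without that of library 2. Of 66 called genes against the lymphocyte-like barcodes 874 recomputed changes kept and 47 lost the call. List medians changed sign in 9 of 375 recomputations against the other barcodes, the microglia list among them without a filter on low counts (-1.35), and in 39 of 336 against the lymphocyte-like ones. Depth limits the gated sum of library 1, with 69 barcodes.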

Other observations

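Of the lipid and iron handling list 6 genes were tested against the other barcodes, 3 called higher and 2 lower, with a median of 1.02. Of all tested genes 29.6% were called higher and 33.2% lower. Without the filter on low counts the median turned to -2.95. The cholesterol exporter gene abca1a had 219 and 195 CPM against 72.1 and 63.0 in the other barcodes and 2.56 and 22.5 in the lymphocyte-like ones (log2 fold changes 2.31 and 3.50, both called by edgeR), and the lipid droplet gene plin2 had 56.5 and 67.8 against 15.9 and 18.1 (2.63). The ferritin gene FTH1 was not called (log2 fold change -0.26, edgeR adjusted p = 0.0950).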
